A study of Mus musculus with 7 samples.

Results

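The genes described here encode the matrix of the perineuronal net: 10 genes (Acan, Bcan, Ncan, Vcan, Hapln1, Hapln4, Tnr, Tnc, Ptprz1 and Has3) out of 43626 gene identifiers in the count table. They were chosen by name, and earlier results of these data were known at the time. All 10 were found by symbol, and all 10 passed the filter on low values. RNA was sequenced from prefrontal cortex of male C57BL/6J mice at 8 weeks of age, in 3 wild-type (WT) libraries and 4 libraries of the genotype that the labels write as hDISC1AA/+, and mark as heterozygous without further definition. DISC1 is a scaffold protein of neurons, and the study's title links its phosphorylation to the polarity of cortical neurons. No treatment or transgene driver is given for either group, and the labels do not tie each library to its own mouse, so p-values here measure the spread between libraries. Values are the authors' normalized counts, that is, reads per gene divided by a size factor for each library.

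Perineuronal nets are lattices of extracellular matrix that wrap the cell body and proximal dendrites of certain neurons, in cortex mostly fast-spiking interneurons that express parvalbumin. Chains of hyaluronan, made at the cell membrane by hyaluronan synthases, carry chondroitin sulfate proteoglycans of the lectican family; link proteins hold each lectican on the chain, and tenascin-R joins the far ends of the lecticans. Several of these components are also made by astrocytes and oligodendrocyte precursors and lie in the loose matrix between cells, so their transcripts in whole cortex come from more cells than those that carry nets. In bulk tissue fewer cells of a type and less RNA per cell cannot be told apart.

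Between 33512557 and 63845254 reads per library fell on genes, the most in WT replicate 1. Of the 4 hDISC1AA/+ libraries 3 carry a title from the labels (replicates 1, 3 and 4), and the remaining one, whose number is in no title, is called the unnumbered hDISC1AA/+ library. Before any comparison, 2 libraries stood apart: WT replicate 1 on the first principal component (-70.4, against -17.4 to 26.3 in the other libraries) and hDISC1AA/+ replicate 1 on the second (66.4, against -27.3 to 0.309). In hDISC1AA/+ replicate 1, GC content and exon length accounted for 0.373 of the variance of genes' deviations from their mean, and at most 0.123 in any other library. For Disc1 there were 46.9 to 109 normalized counts in WT and 60.3 to 85.4 in hDISC1AA/+, with overlapping groups. All 6 markers of excitatory neurons passed the filter on low values, but so did all 6 striatal and all 8 meningeal markers, so their presence does not tell cortex from neighbouring tissue; 0 markers of the 10 cell type lists were at 0 in all libraries.

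The net genes spanned a wide range of levels. Per kilobase of exon, Bcan (brevican) and Ncan (neurocan), both lecticans of the adult brain, had the highest levels, with mean values of 2181 and 1826 normalized counts per kb over the 7 libraries. Bcan was the higher of the pair within every library, although their ranges over libraries overlapped (1837 to 2429 and 1623 to 2059). Below them came Hapln4, a brain link protein also called Bral2 (mean 927 per kb, range 789 to 1077), Tnr, which encodes tenascin-R (mean 799, range 712 to 884), and Ptprz1, a receptor phosphatase whose extracellular part is itself a chondroitin sulfate proteoglycan (mean 601, range 443 to 789). Each of these overlapped its neighbour in the order. Hapln1, the link protein first known from cartilage, followed with a mean of 203 per kb (69.4 to 325), then Vcan (versican) with 67.4 (47.2 to 82.0). The lowest were Tnc, which encodes tenascin-C (mean 33.0 per kb, 24.2 to 38.8), Acan, which encodes aggrecan (21.996, 13.3 to 34.6), and the hyaluronan synthase gene Has3 (17.3, 14.5 to 22.2), whose ranges overlapped in sequence. Aggrecan, the lectican most tied to mature nets, thus made up only 0.311% to 0.779% of the lectican transcripts per length, against 49.8% to 56.4% for Bcan, 41.0% to 47.7% for Ncan and 1.104% to 2.07% for Vcan. The low genes were also those with the fewest reads: Has3 had 90 to 152 reads per library and Acan 94 to 403, so that counting error alone was 10.5% and 10.3% of the lowest value, against 0.943% for Ncan.

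**Figure D1:**
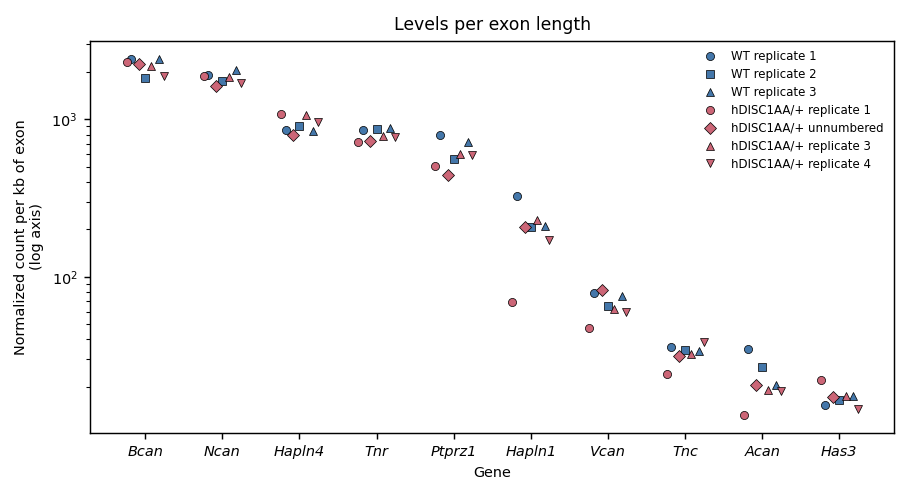
Levels of the 10 genes in normalized counts per kilobase of exon (log axis), one point per library, WT in blue and hDISC1AA/+ in red, ordered by the mean over 7 libraries. Bcan and Ncan lie highest, with means of 2181 and 1826, and Acan and Has3 lowest, with 21.996 and 17.3; the single low point of Hapln1 (69.4) is hDISC1AA/+ replicate 1.

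Lectican and link protein genes lie next to each other in the mouse genome (GENCODE M21, GRCm38). Ncan (chromosome 8, 70093085 to 70120873, minus strand) lies 2222 bp from Hapln4 (70083457 to 70090862, plus strand), and Vcan (chromosome 13, 89655312 to 89742509, minus strand) lies 43659 bp from Hapln1 (89539796 to 89611652, plus strand), with 0 coding genes between either pair. The other lecticans adjoin the link protein genes that are not net members here. Acan (chromosome 7, 79053483 to 79115099, plus strand) ends 2 bp before Hapln3, and Bcan (chromosome 3, 87987531 to 88000230, minus strand) lies 21519 bp from Hapln2. Of the neighbours, Hapln3 had 20.1 to 47.8 normalized counts per library, and Hapln2, the link protein of oligodendrocytes at nodes of Ranvier, had 173 to 305; neither differed detectably (log2 fold change -0.16, 95% CI -0.94 to 0.62, and 0.01, 95% CI -0.54 to 0.55; limma adjusted p = 0.991 and 0.998). With Acan and Hapln3 so close on opposite strands and the strand setting of the counting not given, reads past the end of one could be counted to the other. Has3 (chromosome 8, 106870242 to 106884566, plus strand) overlaps the coding gene Chtf8 on the other strand. Vcan, Hapln1, Tnr and Tnc overlap noncoding or pseudogenes on the other strand. These are overlaps of whole gene spans, and exons were not compared. Where exons are shared, reads could not be told apart from these partners without strand. Tnr also overlaps Gm37731 and Gm10530 on its own strand, and Ncan overlaps the microRNA gene Mir7066 on its own strand. Where exons are shared in these overlaps on the same strand, strand would not separate the reads. Has3, Ncan and Hapln4 share chromosome 8 with Disc1, at distances of 18.2, 54.9 and 55.0 Mb.

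None of the 10 genes passed the test between hDISC1AA/+ and WT. The comparison asks which transcripts differ in adult cortex of this genotype. Limma, fitted over all 17670 genes that passed the filter, called 0 genes (0%) at an adjusted p under 0.05, and 431 genes (2.44%) had an unadjusted p under 0.05. On the recovered reads edgeR and DESeq2 also called 0 genes. An unadjusted p under 0.05 was found for 467 of 17540 genes by edgeR with TMM. By DESeq2, fitted without the filter on low values, it was found for 604 of 28381. Of the net genes 3 had an unadjusted p under 0.05, all of them lower in hDISC1AA/+ (Tnr, Acan and Ptprz1), where 1.3% of all tested genes were lower with such a p. In all, 8 of the 10 had a log2 fold change below 0, against 52.2% of all tested genes; their median was -0.19, against -0.01 over all tested genes. The members share libraries and cell sources, so these counts describe the set and carry no test. For 1 of the 10, Tnr, the ranges of both groups were separate, as for 5.04% of all tested genes.

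**Figure D2:**
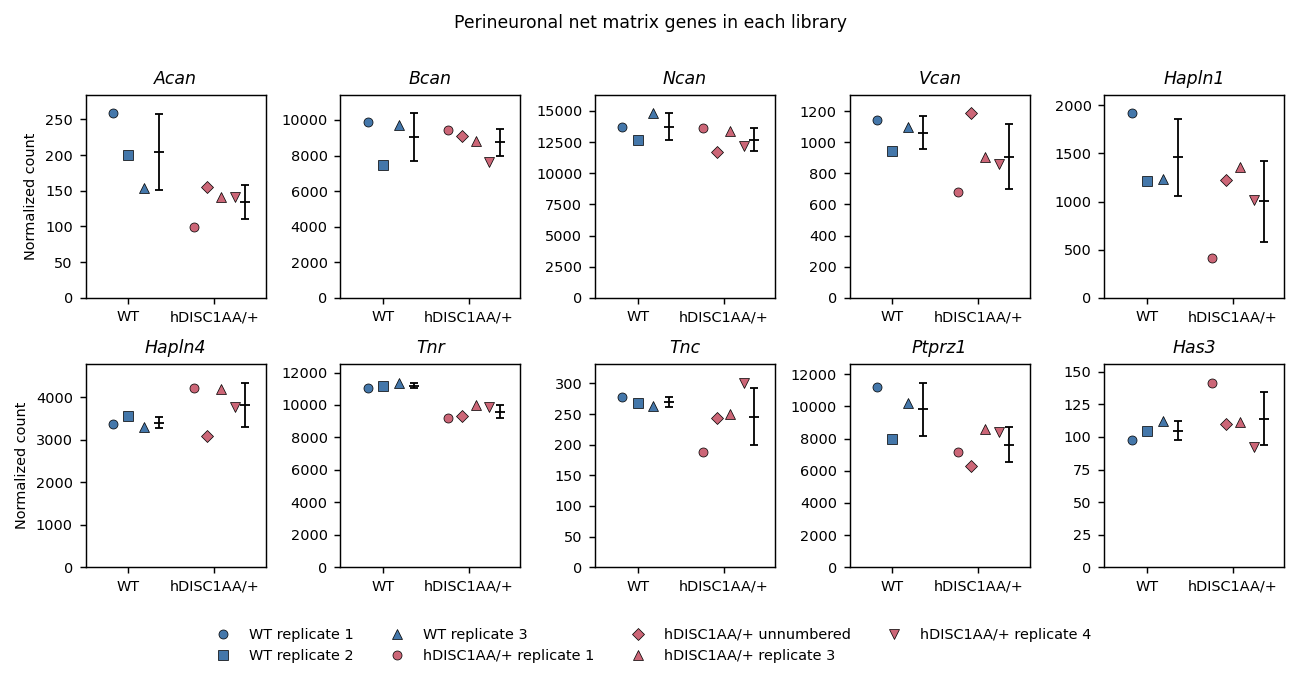
Normalized counts of each gene by library, WT in blue and hDISC1AA/+ in red; bars beside the points are group means with SD (n = 3 and 4), and every axis starts at 0. Only in the Tnr panel do the groups not overlap: WT lies at 11073 to 11379 and hDISC1AA/+ at 9167 to 10025.

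Tenascins are large multimeric glycoproteins; tenascin-R cross-links lecticans in mature nets, and tenascin-C is mostly a protein of developing and injured brain. Tnr (ENSMUSG00000015829; chromosome 1, 159523769 to 159931729, plus strand) had 11073, 11153 and 11379 normalized counts in WT replicates 1 to 3. Its hDISC1AA/+ values were 9167 (replicate 1), 9302 (unnumbered), 10025 (replicate 3) and 9869.7 (replicate 4). Every hDISC1AA/+ library was thus below every WT library, and the WT libraries lay close together (11202 ± 159 SD, n = 3, against 9591 ± 419.9 SD, n = 4). This was a log2 fold change of -0.22 (95% CI -0.41 to -0.04; 0.856-fold, 95% CI 0.754 to 0.971), with an unadjusted limma p of 0.0209 and an adjusted p of 0.974, which did not pass. With exact permutation of the 7 labels (35 splits, two-sided, unadjusted) p was 0.0286, the smallest possible. Tnr varied little among settings: its log2 fold change lay between -0.25 and -0.20 in all 19 alternatives, including without WT replicate 1 (-0.23) and without hDISC1AA/+ replicate 1 (-0.20). Its paralog Tnc (ENSMUSG00000028364; chromosome 4, 63959785 to 64047015, minus strand) had 279, 267 and 264 in WT and 188, 244, 250.2 and 301 in hDISC1AA/+ (replicate 1, unnumbered, replicates 3 and 4). The lowest and the highest value both belonged to hDISC1AA/+, and the difference did not pass (log2 fold change -0.15, 95% CI -0.54 to 0.24; limma adjusted p = 0.974). Per length, Tnr was 19.8 to 29.4 times as abundant as Tnc within a library.

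Among the lecticans only Acan had an interval that left out 0, and it rested in part on the libraries that stood apart. Acan (ENSMUSG00000030607) had 259, 201 and 154 normalized counts in WT replicates 1 to 3. Its hDISC1AA/+ values were 99.4 (replicate 1), 155 (unnumbered), 142 (replicate 3) and 141 (replicate 4). The groups met at WT replicate 3 and the unnumbered hDISC1AA/+ library, and the other 3 hDISC1AA/+ libraries lay below all WT libraries (means 204 ± 52.6 SD, n = 3, and 134 ± 24.03 SD, n = 4). This was a log2 fold change of -0.59 (95% CI -1.11 to -0.07; 0.664-fold), with an unadjusted limma p of 0.0308 and an adjusted p of 0.974; the exact permutation p was 0.0571. The highest library was WT replicate 1 and the lowest hDISC1AA/+ replicate 1. Without both, the log2 fold change was -0.27 (limma, unadjusted p = 0.177), and with limma array weights, which give these libraries the least weight, it was -0.20 (unadjusted p = 0.219, adjusted p = 0.672). Among WT the array weights were 0.244 and 0.942 for replicates 1 and 2, and 5.23 for replicate 3. The weighted WT value thus leaned on replicate 3, where Acan was lowest among WT.

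Most aggrecan-rich nets surround parvalbumin cells, so Pvalb is given beside Acan. Pvalb, the calcium-binding protein of these interneurons, had 756, 755 and 627 normalized counts in WT and 849, 764, 618 and 690.3 in hDISC1AA/+, with overlapping groups (log2 fold change 0.03, 95% CI -0.28 to 0.34; limma adjusted p = 0.998). The sign of this value was the opposite after correction for GC content and length (-0.06). Per 100 normalized counts of Pvalb there were 34.2, 26.6 and 24.5 of Acan in WT, and 11.7, 20.2, 22.9 and 20.4 in hDISC1AA/+ (replicate 1, unnumbered, replicates 3 and 4). This ratio did not overlap between the groups, although Acan and Pvalb each did. The lowest ratio was in hDISC1AA/+ replicate 1, the library with the lowest Acan and the highest Pvalb. The ratio was not set against other gene pairs and was not tested. Of the 6 parvalbumin interneuron markers 2 were higher and 4 lower in hDISC1AA/+, and 0 passed; their summed level was 8876 to 10065 in WT and 9235 to 10709.5 in hDISC1AA/+. By that sum WT replicate 1 was the lowest library, but by the mean log2 deviation of the 6 markers, which weights them equally, it was the highest (0.38, against -0.17 to 0.12 in the others).

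The 3 other lecticans did not differ detectably, and for the most abundant ones the intervals were narrow. Ncan (ENSMUSG00000002341) had 13691, 12644.5 and 14816 normalized counts in WT and 13609.7, 11677, 13362 and 12181 in hDISC1AA/+ (replicate 1, unnumbered, replicates 3 and 4). The groups overlapped, with WT replicate 2 inside the hDISC1AA/+ range (log2 fold change -0.11, 95% CI -0.33 to 0.11; 0.926-fold, 95% CI 0.796 to 1.08; limma adjusted p = 0.974). With array weights the log2 fold change of Ncan was -0.20 (limma, unadjusted p = 0.0200, adjusted p = 0.430). These weights were highest for WT replicate 3 (5.23), which was also the highest library for Ncan. Bcan (ENSMUSG00000004892) had 9872, 7468 and 9737 in WT and 9435, 9077, 8799 and 7655 in hDISC1AA/+, with its lowest value in WT replicate 2 (log2 fold change -0.04, 95% CI -0.32 to 0.24; limma adjusted p = 0.998). The sign of the Bcan difference turned without WT replicate 1 (0.03), WT replicate 3 (0.02) or hDISC1AA/+ replicate 4 (0.02). Vcan (ENSMUSG00000021614), a lectican made largely by oligodendrocyte precursors and at nodes of Ranvier, had 1146, 945 and 1095 in WT and 682, 1186, 903 and 861 in hDISC1AA/+. Its highest and lowest values were both in hDISC1AA/+, in the unnumbered library and replicate 1 (log2 fold change -0.25, 95% CI -0.65 to 0.15; limma adjusted p = 0.974), and without the 2 libraries that stood apart the log2 fold change was -0.06. Without the unnumbered library it was -0.39 (limma, unadjusted p = 0.0327, adjusted p = 0.999).

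The pair of link protein genes pointed in opposite directions, and neither passed. Hapln1 (ENSMUSG00000021613) had 1918, 1218 and 1239 normalized counts in WT. Its hDISC1AA/+ values were 409 (replicate 1), 1228 (unnumbered), 1359 (replicate 3) and 1017 (replicate 4). Apart from the low value in hDISC1AA/+ replicate 1 and the high one in WT replicate 1, the groups lay in the same range. On the log2 scale the difference was -0.64 (95% CI -1.57 to 0.29, the widest interval of the 10 genes; limma adjusted p = 0.974), and -0.04 without these 2 libraries. Hapln4 (ENSMUSG00000007594) had 3359, 3544 and 3305 in WT and 4226, 3095, 4182 and 3764 in hDISC1AA/+ (replicate 1, unnumbered, replicates 3 and 4). It was above all WT libraries in 3 of the 4 hDISC1AA/+ libraries and below them in the unnumbered one (log2 fold change 0.16, 95% CI -0.12 to 0.43; limma adjusted p = 0.974). The ratio of Hapln4 to Hapln1 per length was 2.63, 4.38 and 4.01 in WT, 15.5 in hDISC1AA/+ replicate 1 and 3.79, 4.63 and 5.56 in the other hDISC1AA/+ libraries.

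Ptprz1, the receptor phosphatase whose ligands include tenascins and pleiotrophin and whose secreted form is phosphacan, had the third interval that left out 0. Ptprz1 (ENSMUSG00000068748; chromosome 6, 22875502 to 23052916, plus strand) had 11240.1, 7986 and 10229.6 normalized counts in WT and 7191, 6314.5, 8585 and 8421 in hDISC1AA/+ (replicate 1, unnumbered, replicates 3 and 4). WT replicate 2 lay within the hDISC1AA/+ range, and the other WT libraries lay above all of it (means 9819 ± 1666 SD, n = 3, and 7628 ± 1074 SD, n = 4). This was a log2 fold change of -0.36 (95% CI -0.70 to -0.02), with an unadjusted limma p of 0.0395 and an adjusted p of 0.974; the exact permutation p was 0.143. After correction for GC content and length the log2 fold change was -0.20 (unadjusted p = 0.331). Markers of astrocytes and oligodendrocyte precursors, which express Ptprz1, are given beside it, and 0 of them passed. All 10 astrocyte markers had a log2 fold change below 0, against 52.2% of all tested genes, and their summed level was 175307 to 264918 in WT and 154762 to 191159 in hDISC1AA/+. Of 7 precursor markers 5 were below 0 and 2 above, and their summed level overlapped, with 7397 to 11393.5 in WT and 7529 to 9173 in hDISC1AA/+. WT replicate 1 was the highest library in both lists, and the part of these cells in the Ptprz1 result was not tested. The direction was not particular to astrocytes, whose median log2 fold change was -0.25. All 10 oligodendrocyte markers (median -0.59) and all 8 microglial markers (median -0.19) were also below 0. All 10 endothelial and mural markers were above 0 (median 0.53). WT replicate 1 was the highest library for the summed oligodendrocyte and microglial markers and the lowest for the endothelial and mural ones. The mean log2 deviation of that library was 1.17, 0.47 and -1.43 in these lists. In the other libraries it was -0.32 to 0.04, -0.18 to 0.05 and 0.11 to 0.42. Without WT replicate 1 the log2 fold change of Ptprz1 was -0.26 (unadjusted p = 0.141).

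Has3 (ENSMUSG00000031910), a hyaluronan synthase, had 97.6, 105 and 112 normalized counts in WT and 142, 110.0, 112 and 92.6 in hDISC1AA/+ (replicate 1, unnumbered, replicates 3 and 4). The hDISC1AA/+ libraries spanned the WT range on both sides (log2 fold change 0.11, 95% CI -0.34 to 0.55; limma adjusted p = 0.986). Its sign turned without hDISC1AA/+ replicate 1 (-0.0044), without both libraries that stood apart (-0.055) and with array weights (-0.051). For 6 of the 10 genes the 95% CI lay within a 1.5-fold change in either direction, and for 8 within 2-fold; over all tested genes 54.0% lay within 1.5-fold. For Acan and Hapln1 a 2-fold lower level was not excluded.

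**Figure D3:**
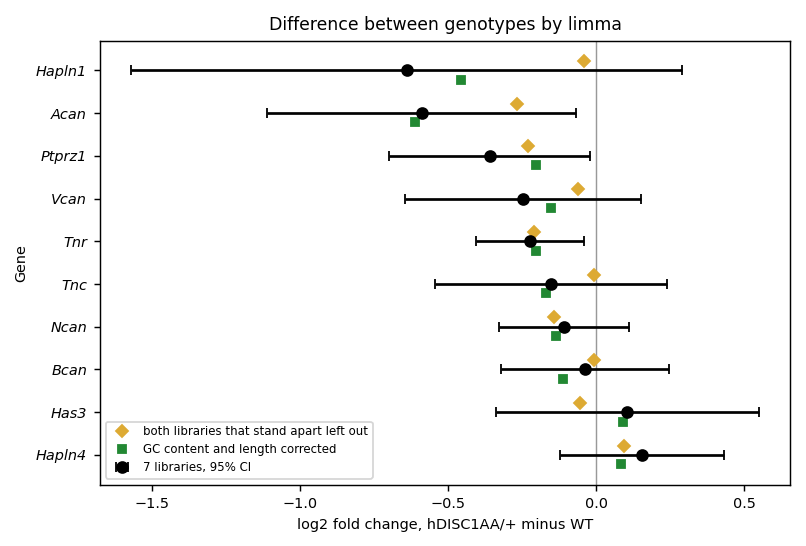
Log2 fold change of each gene, hDISC1AA/+ minus WT; black points with 95% CI are limma on 7 libraries, diamonds are without WT replicate 1 and hDISC1AA/+ replicate 1, and squares are after correction for GC content and length. The 3 settings lie together for Tnr (-0.22, -0.21 and -0.21), whereas Hapln1 goes from -0.64 to -0.04 without the 2 libraries.

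Extreme values of the net genes were counted by library. WT replicate 1 was the highest library for 4 of the 10 genes (28.2% of all tested genes) and the lowest for 0 (24.8%), and hDISC1AA/+ replicate 1 was the lowest for 5 of the 10 (24.8% of all tested genes) and the highest for 2 (18.6%). The deviations from the 7-library mean in hDISC1AA/+ replicate 1 went in both directions. Those of the 3 genes with the lowest GC content were negative: Hapln1 (40.3% GC) at -1.43, Ptprz1 (42.2%) at -0.23 and Vcan (44.5%) at -0.49. Those of the 3 genes with the highest were positive: Bcan (59.9%) at 0.10, Hapln4 (58.6%) at 0.22 and Ncan (55.1%) at 0.05. In between, Tnr (49.7%) was at -0.16, Has3 (50.1%) at 0.37, Tnc (52.9%) at -0.43 and Acan (54.5%) at -0.66. Of these, Has3, Tnc and Acan did not follow that order. Within each of these sets of genes the deviations did not rise in step with GC content. After correction for GC content and length the log2 fold change was -0.46 for Hapln1, -0.15 for Vcan and -0.61 for Acan. In WT replicate 1 the summed level of the 10 oligodendrocyte markers was 141229, against 40806 to 52764 in the other 6 libraries, and that of the 10 endothelial and mural markers 5154, against 11711 to 14945. Their part in the net gene values was not tested; the values without that library are given above and in the closing section.

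**Figure D4:**
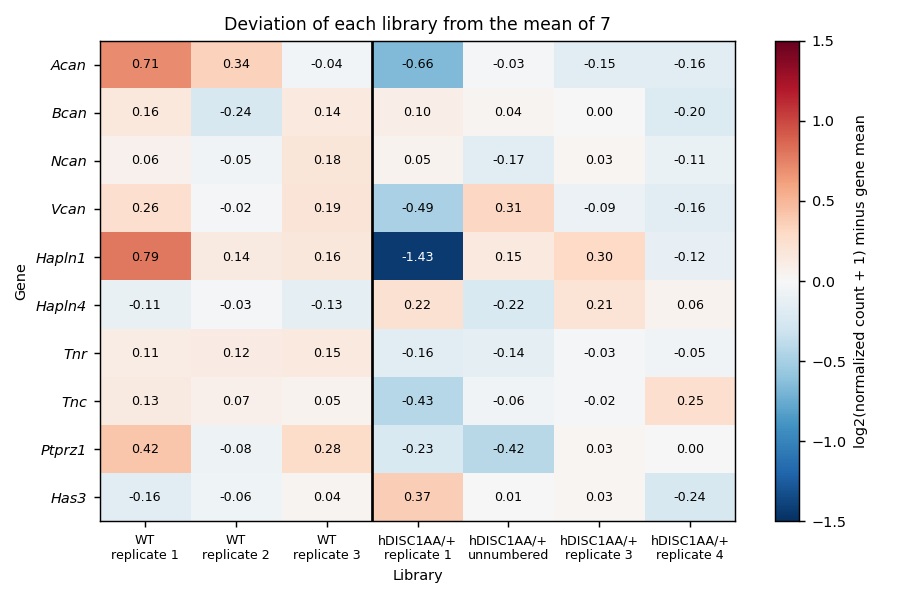
Deviation of log2(normalized count + 1) from the gene's mean over 7 libraries, genes in rows and libraries in columns, red above and blue below the mean; the vertical line divides WT from hDISC1AA/+. The strongest cell is Hapln1 in hDISC1AA/+ replicate 1 (-1.43), and Tnr is above its mean in all 3 WT libraries and below it in all 4 hDISC1AA/+ libraries.

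The 250 bases upstream of the RefSeq start sites were read for the 8 members in the RefSeq promoter table (GRCm38.p6), with 9 windows in all, since Tnc has a pair of overlapping windows. The windows of Tnr, Acan and Ptprz1 are shown, since these are the members with an unadjusted p under 0.05; capitals mark CpG dinucleotides, and each runs 5′ to 3′ on the plus strand from chr1:159523519-159523768, chr7:79052976-79053225 and chr6:22875252-22875501.
Tnr: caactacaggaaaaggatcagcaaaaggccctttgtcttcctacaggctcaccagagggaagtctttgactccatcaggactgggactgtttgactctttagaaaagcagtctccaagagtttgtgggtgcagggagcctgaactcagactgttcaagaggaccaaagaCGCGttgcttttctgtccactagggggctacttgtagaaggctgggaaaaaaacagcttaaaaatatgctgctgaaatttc
Acan: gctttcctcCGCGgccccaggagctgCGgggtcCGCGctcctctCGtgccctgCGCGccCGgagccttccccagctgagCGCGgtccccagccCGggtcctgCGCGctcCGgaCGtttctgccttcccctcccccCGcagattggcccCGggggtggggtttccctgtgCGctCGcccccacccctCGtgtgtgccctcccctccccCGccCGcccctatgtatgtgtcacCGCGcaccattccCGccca
Ptprz1: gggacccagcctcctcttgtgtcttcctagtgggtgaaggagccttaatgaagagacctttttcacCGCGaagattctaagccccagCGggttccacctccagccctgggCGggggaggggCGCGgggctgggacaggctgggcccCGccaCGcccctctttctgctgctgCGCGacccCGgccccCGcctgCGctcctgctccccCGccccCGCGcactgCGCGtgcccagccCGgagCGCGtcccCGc
The promoters differ in base composition although the genes pointed the same way. The Tnr window held 2 CpG and 46.8% GC, and fewer CpG were found in 18.6% of 32536 such windows of all genes (median 6). Acan held 26 CpG with 74.4% GC, and Ptprz1 22 with 71.6%. Fewer CpG than in these windows were found in 90.3% and 85.1% of all windows. The GC box GGGCGG, searched on both strands and itself holding a CpG, was present in 7 of the 9 windows and in 33.0% of all. Both overlapping windows of Tnc are among the 7. The windows of Tnr and Hapln1 did not hold the GC box. The TATA box TATAAA, on both strands, was present in 3 of the 9 (Ncan and both of Tnc) and in 12.3% of all. A match of letters is a description and not a binding site.

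Enzymes that make chondroitin sulfate, the sugar chain of the lecticans, were measured alongside. Of 21 genes 20 were tested, 10 higher and 10 lower in hDISC1AA/+ (median log2 fold change -0.02), and 0 passed; 3 of the 20 had an unadjusted limma p under 0.05, against 2.44% of all tested genes. The 2 with the smallest p were Dsel, a dermatan sulfate epimerase-like gene, and Xylt1, the xylosyltransferase that starts the chain on the core protein. Dsel had 1286, 977 and 1045 normalized counts in WT and 517, 814, 862 and 889.9 in hDISC1AA/+ (replicate 1, unnumbered, replicates 3 and 4; log2 fold change -0.54, 95% CI -0.99 to -0.09; limma adjusted p = 0.974). Xylt1 had 1369.6, 933 and 1136 in WT and 914, 520.1, 862 and 897 in hDISC1AA/+ (log2 fold change -0.54, 95% CI -1.03 to -0.04; limma adjusted p = 0.974). In both genes, which were named for their small p, every hDISC1AA/+ library lay below every WT library. They were the 2 of the 20 tested enzymes whose groups did not overlap. Over all tested genes 5.04% did not overlap in either direction, and 2.84% with hDISC1AA/+ lower. The third, Ust, a uronyl 2-O-sulfotransferase named here after its values were seen, had a log2 fold change of -0.51 (95% CI -0.97 to -0.04; limma unadjusted p = 0.0364, adjusted p = 0.974). Without the libraries that stood apart Dsel was at -0.24 and Xylt1 at -0.48.

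Other matrix components, matrix-degrading enzymes and matrix receptors showed no call either. Of 16 other matrix and link genes 7 were higher and 9 lower (median -0.01), with the smallest p for Has1, a hyaluronan synthase (28.0 ± 5.99 in WT, 39.6 ± 9.46 in hDISC1AA/+, SD; log2 fold change 0.48), and Sema3a, a secreted semaphorin that binds to nets (1445 ± 143 and 1125 ± 351; -0.43). Sema3a, like Hapln1, had its low value in hDISC1AA/+ replicate 1 (602, against 1248 to 1605 in the other 6). Of 23 proteases, hyaluronidases and inhibitors 22 were tested, 8 higher and 14 lower (median -0.04), with the smallest p for Adamts4, a protease that cuts aggrecan and brevican (439 ± 221 and 274 ± 60.7; -0.59), and Mmp16, a membrane-bound metalloproteinase (1119 ± 118 and 919.7 ± 187; -0.30). Adamts4 had 689 normalized counts in WT replicate 1 against 201 to 359.6 elsewhere; its log2 fold change was -0.21 without that library and -0.32 without both that stood apart. Of 14 receptors 4 were higher and 10 lower (median -0.14), with the smallest p for Cntn1, contactin-1, a neuronal surface partner of tenascin-R and Ptprz1 (17485 ± 1662 and 14949 ± 1575; -0.23), and Plxna4, a plexin of semaphorin signalling (5461 ± 74.9 and 4825 ± 582; -0.19). All of these had a limma adjusted p of 0.974. Of the 14 receptors only Plxna4, named for its small p, had groups that did not overlap, against 5.04% of all tested genes. It had 5404 to 5546 normalized counts in WT and 4026 to 5318 in hDISC1AA/+.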

How the data were processed

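RNA from prefrontal cortex (Trizol, NEBNext Ultra RNA kit, per the labels' protocols) was measured in 7 libraries. The submitters' processing notes list mm10 as build and DESeq2 1.26.0, HTSeq 0.6.1, HISAT2 2.1.0 and Trimmomatic 0.39 as tools, with no role or order; for annotation and strand, the setting is not given in the sources used. The values the authors deposited are a signal: reads per gene over a size factor of the library. Every value above 0 was a whole multiple of 1 step per column (100% within 0.01 reads), which gave back the reads. All 7 columns were used; 1 matched only its group by name. For 3 genes with identifier and values on separate lines nothing was used (0.012% to 0.0169% of values). Libraries were not copies (chi-square over degrees of freedom, at least 11.5 for any pair).

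Of 43626 identifiers 42545 matched GENCODE M21 (GRCm38). Genes with at least 10 normalized counts in at least 3 libraries were tested with limma 3.58.1 (trend, robust) (two-sided) after adding 1 to each normalized count and taking log2; p-values were adjusted by Benjamini-Hochberg over all genes, threshold 0.05; this scale understates changes of low genes. Single members also got an exact permutation test (SciPy 1.17.1). Alternatives were other pseudocounts (0.5, 8), filters, TMM or upper quartile scaling, edgeR 4.0.16 and DESeq2 1.42.0 on the recovered reads, array weights, a GC content and length correction, and libraries left out. Named were all members, the 2 genes of smallest p in each of 4 pathway lists, family neighbours, Pvalb, and the 3 genes closest in profile to Acan, Vcan and Tnr. Members and lists were chosen with earlier results of these data known.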

Additional observations from a re-analysis of the deposited data

Results flagged for a closer look

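The members, the genes named by rule, Ust and the lectican shares were screened for a hDISC1AA/+ library far from the other 3. This was judged by the gap to the nearest library as a share of the group's range (Dixon's test, which flags about 1 in 20 groups by chance). In all, 3 genes were flagged. Some genes were listed for profiles like that of a member, so the 3 were not set against that rate. For Sema3a the share was 0.869, with hDISC1AA/+ replicate 1 at 602 normalized counts and the others at 1248 to 1345. For Xylt1 it was also 0.869, with the unnumbered hDISC1AA/+ library at 520.1 and the others at 862 to 914. For B3gat2, the gene closest in profile to Acan, it was 0.861, with hDISC1AA/+ replicate 1 at 100.5 and the others at 167 to 178.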

How the results depend on the processing

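In all 19 alternatives 0 genes and 0 of the 10 members passed, and 7 to 9 members were below 0. Of the members 8 kept their sign in every alternative; Bcan and Has3 did not. The number of members with an unadjusted p under 0.05, 3 as reported, was 1 without WT replicate 1 and hDISC1AA/+ replicate 1 together, 2 after the GC content and length correction (Acan and Tnr), and 1 to 4 with single libraries left out, being 1 without WT replicate 1 or hDISC1AA/+ replicate 1 (Tnr), WT replicate 2 (Ptprz1) or WT replicate 3 (Acan), and 4 without the unnumbered library (Acan, Vcan, Hapln4 and Tnr). With array weights the 3 were Ncan, Tnr and Ptprz1. The number over all tested genes also changed with the setting. It was 431 of 17670 as reported, 1823 of 17670 with array weights and 504 of 17543 after the GC content and length correction. Of 17670 genes it was 586 without both libraries, and 222 (without the unnumbered library) to 886 (without WT replicate 2) with single libraries left out. Over the alternatives the limma, edgeR or DESeq2 adjusted p was 0.392 to 0.9997 for Tnr, 0.672 to 0.9997 for Acan and 0.416 to 0.9997 for Ptprz1; the unadjusted p of Tnr was under 0.05 in 17 of 19, missing it without WT replicate 2 or 3. Signs were the opposite of the reported one for Has3 with array weights (-0.051) and without both libraries (-0.055), for Pvalb after the GC content and length correction (-0.057), and for Hapln2 with edgeR (-0.023 with TMM and -0.023 with RLE), DESeq2 (-0.030) and the GC content and length correction (-0.077). With single libraries left out, the log2 fold change ranged from -0.17 to 0.031 for Bcan, -0.0044 to 0.20 for Has3, -0.14 to 0.27 for Hapln2, -0.37 to 0.033 for Hapln3 and -0.059 to 0.11 for Pvalb. In these the cause was not tested. No paired analysis was possible because the replicate numbers used here only follow the order of the samples, and the labels tie no WT sample to a hDISC1AA/+ sample.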

Other observations

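Genes with a profile over the 7 libraries closest to a member were listed, by the root mean square distance between centred log2 values, among genes that varied at least as much as the member. Closest to Acan, of 4031 genes, was B3gat2, which encodes a glucuronyltransferase of the HNK-1 carbohydrate epitope, at a distance of 0.12 (SD of Acan 0.43). B3gat2 had 291, 194 and 170.0 normalized counts in WT and 100.5, 178, 167 and 176 in hDISC1AA/+ (replicate 1, unnumbered, replicates 3 and 4), again highest in WT replicate 1 and lowest in hDISC1AA/+ replicate 1. Gm18284 and Alyref2 followed at 0.15 and 0.16, with mean counts of 36.2 and 21.6. Closest to Vcan, of 7206 genes, were the antisense gene Gm26826 (0.06) and St14 (0.09), with mean counts of 14.7 and 18.6, and Hmgn2, a nucleosome-binding protein (0.10; mean count 1423). Closest to Tnr, of 14373 genes, were Ap1g1, a subunit of the AP-1 clathrin adaptor (0.02), Selenoi, an ethanolaminephosphotransferase (0.03), and the signalling adaptor gene Crk (0.04). Ap1g1 had 3432, 3381 and 3373 in WT and 2774, 2784, 3051 and 3027 in hDISC1AA/+, and like Tnr did not overlap between the groups. That follows from its choice by closeness to Tnr and adds no support. Over all tested genes 5.04% did not overlap. These distances are a description over 7 libraries, and no test was made.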
